A study of Mus musculus with 8 samples.

Results

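The clustered protocadherin locus of mouse chromosome 18 was examined for binding of Rad21, a subunit of the cohesin ring, in a B lymphoma line. The locus was taken as all Rad21 peaks that overlap positions 37000000 to 38100000 of chromosome 18 (mm9, a 1.1 Mb window). The 8 peak lists held 90 such peaks, which merged into 27 sites where peaks overlapped by at least 1 bp, of 64772 merged regions in the genome. The window was defined by position and not by any measured value, though it was chosen with earlier results of these data known.

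The cells were CH12F3, a mouse B lymphoma line that can switch from IgM to IgA, stimulated for 3 days (72 hours) with anti-CD40, IL4 and TGF-β. Rad21 was precipitated with the antibody ab992, and each of 4 genotypes has 2 libraries. All 4 genotypes lack AID (AID-/-), the enzyme whose cytosine deamination sets off class switching, and all carry an edited Igh allele on another chromosome. In FS_Ca (Iγ3-FS-Cα) the stretch from Cγ3 to Iα was deleted and both switch regions, Sγ3 and Sα, were left at full length. The cells it was made in have a deletion on the non-coding Igh allele, from VH to the 3'BCEs. FS_Ia (Iγ3-FS-Iα) lost Cγ3 to Cα, again with full-length Sγ3 and Sα, in αInv cells. In PS_Ca (Iγ3-PS-Cα) and PS_Ia (Iγ3-PS-Iα) the deletion ran from Sγ3 to Sα so that only parts of both remained. PS_Ca was made in the non-coding allele deletion cells and PS_Ia in αInv cells. Ca against Ia is called orientation here, and FS against PS switch length. Both Ca lines came from the deletion cells and both Ia lines from αInv cells, so orientation cannot be told apart from the parent cells. Whether each line is a single clone, and whether its 2 libraries come from different cultures, was not given in the sources used here. P-values below therefore reflect just the spread among these libraries, which may be technical. The peak lists hold no expression, so the cell type was not checked against marker genes.

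Clustered protocadherins are cell adhesion proteins best known from neurons, where each cell chooses a small set of isoforms that gives its surface an identity. The α and γ clusters join one of many variable first exons, each with its own promoter, to shared constant exons, whereas each β gene is a single exon. In neurons, CTCF bound at the promoters and at distant enhancers halts cohesin, and the loops that form bring an enhancer to the chosen promoter. The RefSeq gene table (GRCm38.p6, used only for names and order) lists 14 α genes from Pcdha1 to Pcdhac2, then 22 β genes from Pcdhb1 to Pcdhb22, then Slc25a2 and Taf7, then 21 γ genes from Pcdhga1 to Pcdhgc5. Zmat2 precedes the α genes, and Diaph1 and Hdac3 follow the γ genes. No mm9 annotation was used here, so no site was assigned to a gene or to an exon, intron or UTR. Approximate mm9 windows from general knowledge divided the locus instead: α with its downstream enhancer from 37080001 to 37410000, β from 37410001 to 37810000, γ from 37810001 to 38000000, and the stretch downstream of γ from 38000001 to 38100000. Diaph1, the next gene in order, encodes a formin that builds actin filaments. Whether reads from the near-identical exons of these genes were kept was not given in the sources used here.

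Depth is known only through the lists. The 8 lists held 11288 to 47461 peaks. The fold enrichment of a peak (column 7, its summit height over the library's expected background, by the authors' peak caller) rose in equal steps, from which the summit height in fragments was recovered. The expected background was 0.223 to 0.862 fragments and the lowest called summit 3 to 5 fragments. A site missing from a list had no call in that library, and lack of Rad21 binding cannot be read from a missing call. Whether depth accounts for the missing calls was not tested. Strength is given below as the fold, as the height, or as a percentile rank within its own list (0 is the strongest peak and 100 the weakest). Folds and ranks compare peaks of 1 list, not amounts of Rad21 between libraries.

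Rad21 sites filled one end of the locus and left the other nearly empty. The first 600 kb of the window, which takes in the α window, held 1 of the 90 peaks (1.11%), and the last 200 kb, from 37900001 to 38100000, held 70 peaks (77.8%) and 18 of the 27 sites. Between them, 14 peaks lay within 37600001 to 37700000, in the β window. From 37700001 to 37800000 no library had a peak, and 5 peaks lay in the 100 kb after that.

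**Figure D1:**
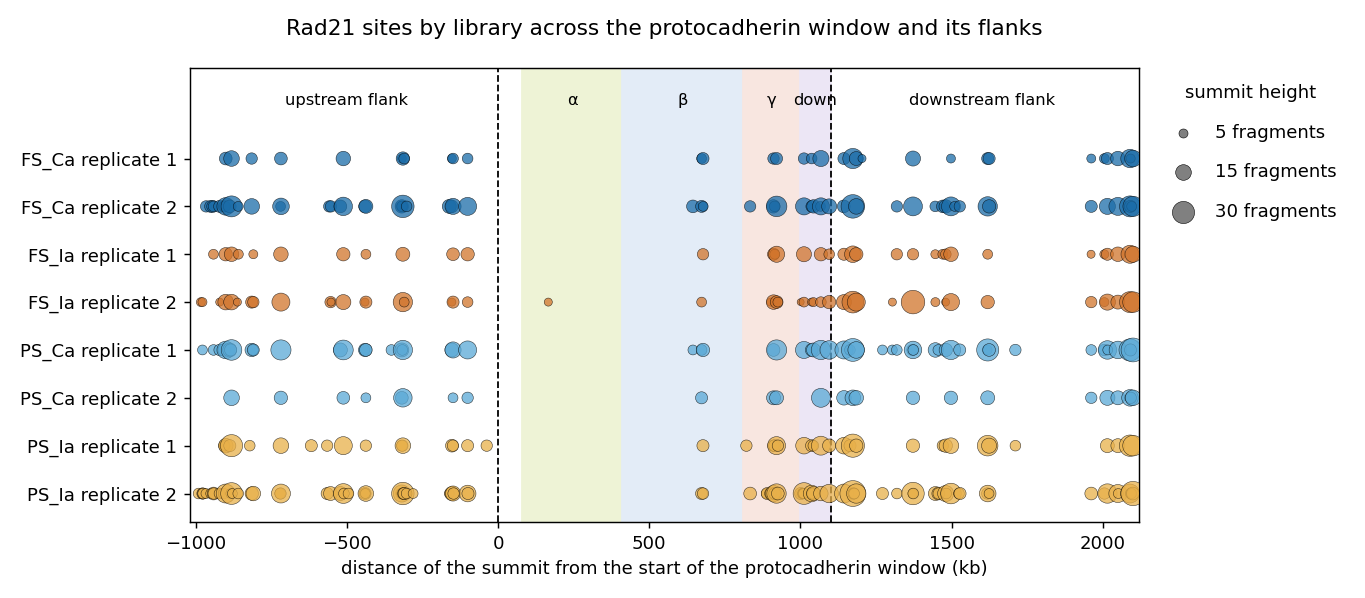
Each point is the strongest Rad21 peak of a library at a merged site, placed by the distance of its summit from the start of the protocadherin window (kb); point area is proportional to summit height in fragments, colours are genotypes, shading marks the approximate α, β, γ and downstream (down) windows, and dashed lines mark the ends of the 1.1 Mb window. A single point, of FS_Ia replicate 2, lies in the α window, whereas the right end of the locus and both flanks hold points in all 8 libraries.

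The α window, set to take in the genes up to Pcdhac2 and the enhancer beyond them, had 1 Rad21 site in 1 library. It lay at 37166219 to 37166453 in FS_Ia replicate 2, with a fold of 4.09 and a summit of 4 fragments, where the lowest summit called in that list was 3 fragments. Its percentile rank was 86.2. The other 7 libraries, among them the longest list, PS_Ia replicate 2, had none. After this site no library had a peak up to 37644444, a stretch of 478 kb. Of the 64751 gaps between neighbouring regions on the numbered chromosomes and X, 782 (1.21%) were longer. This is a share of gaps by number. The share of the genome's length that lies in such gaps is larger and was not measured. Without FS_Ia replicate 2 the empty stretch ran from 36962897 to 37644444, or 682 kb, from inside the upstream flank to the far part of the β window.

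The β window, with the single-exon genes from Pcdhb1 on, had 4 sites, all between 37644445 and 37678851. A close pair made up most of its peaks. The member at 37672623 to 37673531 was found in 6 libraries and missing from FS_Ia replicate 1 and PS_Ia replicate 1. Its neighbour, 4.63 kb away at 37677608 to 37678508, was found in 5 libraries and missing from FS_Ca replicate 2, FS_Ia replicate 2 and PS_Ca replicate 2. Each library thus held at least 1 of the pair, and FS_Ca replicate 1, PS_Ca replicate 1 and PS_Ia replicate 2 held both. These were low peaks.

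For the site at 37672623, the folds in FS_Ca replicates 1 and 2 were 5.02 and 5.78, in FS_Ia replicate 2 5.72, in PS_Ca replicates 1 and 2 4.51 and 6.30, and in PS_Ia replicate 2 5.37. For the site at 37677608, the folds were 7.17 in FS_Ca replicate 1, 6.96 in FS_Ia replicate 1, 6.77 in PS_Ca replicate 1, and 6.16 and 4.83 in PS_Ia replicates 1 and 2. Heights at the pair were 6 to 11 fragments, and percentile ranks 40.4 to 80.3, mostly in the weaker part of each list. The other β sites were at 37644445 to 37645009, in FS_Ca replicate 2 and PS_Ca replicate 1, and at 37678590 to 37678851, in FS_Ca replicate 2 alone. The latter had its summit 0.682 kb from that of the neighbour which the same library lacked.

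The γ window had 9 sites, of which 2 were found in all 8 libraries. Both lay in the far part of the window, their summits 10.1 kb apart. The stronger, at 37920521 to 37922656, had folds of 7.17 and 15.6 in FS_Ca replicates 1 and 2, 13.2 and 8.99 in FS_Ia, 14.7 and 8.19 in PS_Ca, and 12.9 and 12.9 in PS_Ia. Its height was 9 to 26 fragments and its percentile rank 4.03 to 42.0. The lowest and the highest summit both came from FS_Ca, in replicates 1 and 2.

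The other γ site of all libraries, at 37910595 to 37912050, had folds of 6.46 and 6.93 in FS_Ca replicates 1 and 2, 7.74 and 11.4 in FS_Ia, 6.21 and 8.19 in PS_Ca, and 5.55 and 9.13 in PS_Ia. Its height was 8 to 16 fragments. It was lower than the stronger site in 6 libraries, level with it in PS_Ca replicate 2, and higher in FS_Ia replicate 2. Between the 2 sites lay another at 37914845 to 37915620, found in 4 libraries with folds of 4.62 to 6.16. A site on the far side, at 37925354 to 37926220, was found in 3 libraries. The remaining 5 γ sites, spread from 37821173 to 37902073, were found in 1 or 2 libraries each, with folds of at most 5.91.

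In the 100 kb window downstream of γ, 13 sites were found. The strongest by mean rank, at 38066941 to 38069306, was found in all 8 libraries. Its folds were 12.2 and 11.0 in FS_Ca replicates 1 and 2, 9.28 and 6.54 in FS_Ia, 13.5 and 14.5 in PS_Ca, and 14.2 and 7.52 in PS_Ia. It was the tallest locus site in FS_Ca replicate 1, PS_Ca replicate 2 and PS_Ia replicate 1. Its summits lay within 345 bp of each other, and those of the stronger γ site within 404 bp, so the same place was called in every list. Against the stronger γ site, 147 kb away, it was lower in 5 libraries and higher in 3.

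Another tall site of this stretch, at 38010935 to 38012982, was found in the 7 libraries other than PS_Ca replicate 2, the shortest list. Its folds were 6.46 and 11.0 in FS_Ca replicates 1 and 2, 11.6 and 5.72 in FS_Ia, 10.7 in PS_Ca replicate 1, and 11.1 and 16.1 in PS_Ia. The last of these, a summit of 29 fragments, was the tallest peak of the locus in any library. The site nearest the end of the window, at 38094628 to 38096054, was found in 6 libraries, with folds of 6.19 to 12.4. It was missing from FS_Ca replicate 1 and PS_Ca replicate 2. Sites at 38036692 to 38038227 and 38042782 to 38043922 were found in 6 and 5 libraries, with folds of 4.09 to 9.67 and 4.91 to 7.34. Of the 8 other sites, 7 were found in 1 library and 1 in 2 libraries, and the pair at 38000056 to 38001273 lies too near the approximate border with γ to be placed on either side.

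**Figure D2:**
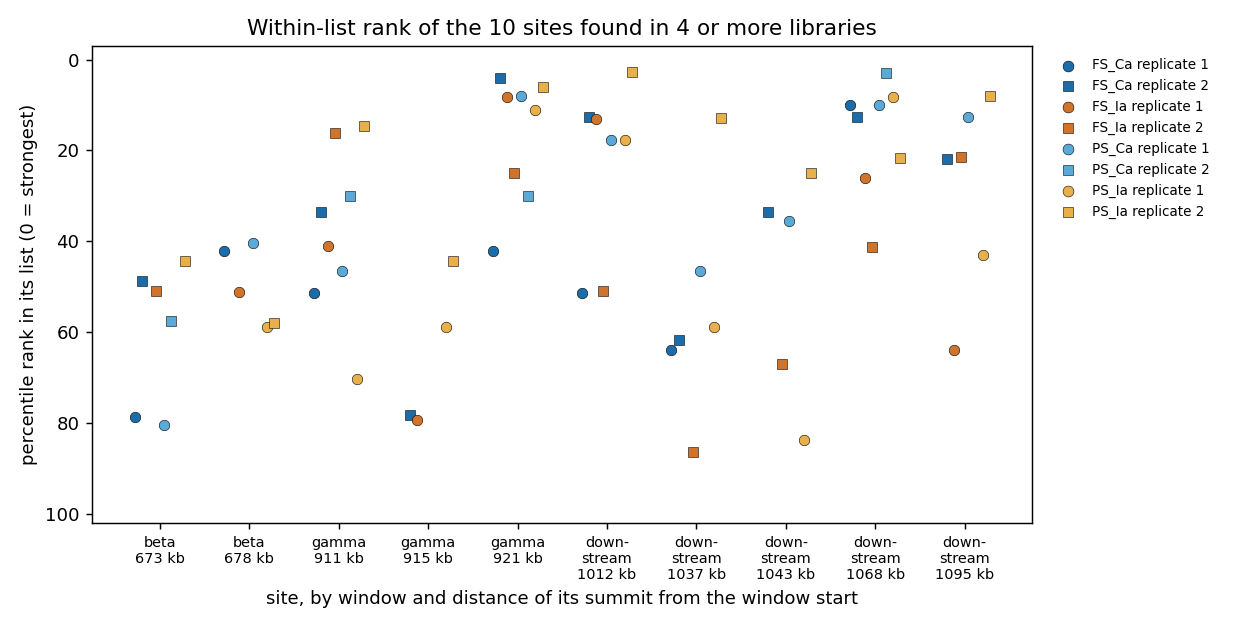
Percentile rank by fold within the library's own list (vertical axis, 0 strongest at the top) for the 10 locus sites found in 4 or more libraries, in order along the chromosome with the distance of each summit from the window start; colours are genotypes, circles replicate 1 and squares replicate 2. The β pair lies between 40.4 and 80.3, and of these 10 sites those at 921, 1012, 1068 and 1095 kb have a library with a rank stronger than 10.

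Recurrence in the locus is set beside that of the genome as a description. Of the 27 sites, 3 (11.1%) were found in all 8 libraries, where 10.4% of all merged regions were. There were 10 sites (37.0%) in 4 or more libraries, where 28.3% of all regions were, and 12 sites (44.4%) in 1 library only, where the share of all regions was 52.6%. Of the 12, 8 came from PS_Ia replicate 2, 2 from FS_Ca replicate 2 and 1 each from FS_Ia replicate 2 and PS_Ia replicate 1. The number of the 10 recurrent sites held by a library was 4 in PS_Ca replicate 2, 7 in FS_Ca replicate 1 and in FS_Ia replicate 1, 8 in FS_Ia replicate 2, 9 in FS_Ca replicate 2, PS_Ca replicate 1 and PS_Ia replicate 1, and 10 in PS_Ia replicate 2. The library with the shortest list held the fewest and the one with the longest list held all of them. The part of list length in this order was not tested.

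The spacing of the recurrent sites was uneven. From the β pair to the first γ site was 233 kb, the 3 γ sites were 4.17 and 5.93 kb apart, and 90.7 kb separated the last of them from the site at 38010935. Beyond it the distances were 25.2, 6.10, 24.7 and 27.4 kb. The sites found in all 8 libraries had mean percentile ranks of 38.0, 16.8 and 16.6 in order along the chromosome. All regions of the genome found in all 8 libraries had a median of 22.6, with quartiles of 13.0 and 33.4. The first of the γ sites was thus among the weaker of such regions.

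Taken as a whole, the locus was sparse against its flanks. The question was whether the 1.1 Mb with the 3 clusters carried cohesin as densely as the 1 Mb on each side. Per library, the window held 4 to 22 peaks, or 10.2 ± 5.11 peaks per Mb (SD, n = 8), and both flanks together 21.4 ± 11.4 peaks per Mb. The locus was lower in 8 of 8 libraries, by a mean of 11.1 ± 7.01 peaks per Mb (exact two-sided permutation test over the signs of the 8 differences, p = 0.00781, the smallest that 8 libraries can give). The ratio of locus to flank density was 0.325 to 0.623, with a median of 0.491. This test speaks of the repeat over libraries of 1 cell line, not of other stretches of the genome. In merged sites, the locus had 24.5 per Mb, the upstream flank 62.0 and the downstream flank 44.0. Windows of 1 Mb on the numbered chromosomes and X had a median of 14 regions, with quartiles of 3 and 36, so the flanks were dense stretches and the locus lay between the median and the upper quartile.

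Sites of all 8 libraries numbered 6 of 62 (9.68%) in the upstream flank and 10 of 44 (22.7%) in the downstream flank. In the locus they numbered 3 of 27 (11.1%), and over all merged regions the share was 10.4%. Windows of 1 Mb on the numbered chromosomes and X had a median of 2 such regions, with quartiles of 0 and 4. The best-ranked site of the upstream flank, at 36117355 to 36120502, had folds of 10.1 to 19.1. That of the downstream flank, at 38171529 to 38175003, had folds of 10.1 to 24.5 and a mean percentile rank of 3.81. It lay beyond the end of the locus by less than 100 kb. Within the lists, locus peaks did not stand apart in rank. The median percentile rank of a library's locus peaks was 44.9 ± 8.94 and that of its flank peaks 42.6 ± 8.63 (SD, n = 8). The mean difference was 2.30 (exact permutation test, p = 0.609), with 4 libraries higher, 3 lower and FS_Ia replicate 1 at 0. Among peaks with a −log10 q of at least 5, locus peaks ranked weaker by a mean of 16.7 in the 8 libraries (exact permutation p = 0.00781). This was the only one of 14 alternatives to pass, and in lists of equal length the difference was 9.68 (exact permutation p = 0.156).

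Between the clusters, density rose from α to γ. The α window held 0.379 ± 1.07 peaks per Mb, β 4.38 ± 2.22, γ 21.7 ± 11.1, and the stretch downstream of γ 52.5 ± 33.3 (SD, n = 8 each). The γ window was denser than β in 8 of 8 libraries, by 17.3 ± 10.9 peaks per Mb, and denser than α in 8 of 8, by 21.3 ± 11.1 (exact permutation, p = 0.0117 for each after Benjamini-Hochberg adjustment over 3 pairs). The α window was sparser than β in 7 of 8 libraries, the exception being FS_Ia replicate 2, by a mean of 4.00 ± 2.77 (adjusted exact permutation p = 0.0156). That difference rests on 14 peaks against 1. In lists cut to the same length of 11288 peaks it was 0.938 and did not pass (adjusted exact permutation p = 0.25). The downstream stretch was not part of these pairs and is given as a description. Both flanks together held 21.4 ± 11.4 peaks per Mb, near the γ mean and below that of the downstream stretch. Neither window was tested against the flanks.

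**Figure D3:**
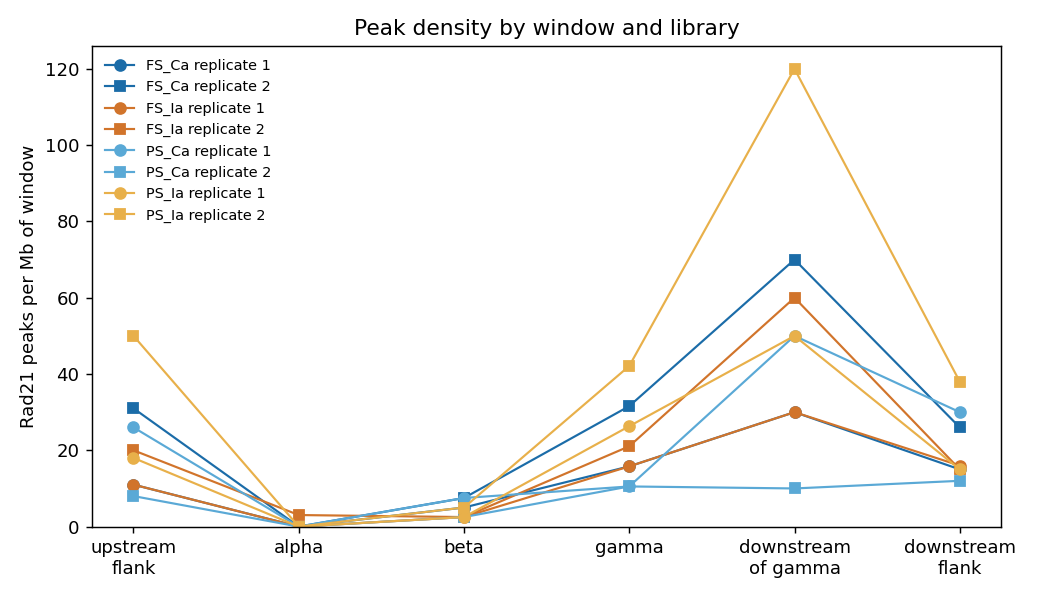
Rad21 peaks per Mb (vertical axis, from 0) in the upstream 1 Mb flank, the approximate α, β and γ windows, the 100 kb downstream of γ and the downstream 1 Mb flank; each line is a library, coloured by genotype, with circles for replicate 1 and squares for replicate 2. Lines fall to 0 at α in 7 libraries and to 3.03 in FS_Ia replicate 2, and reach 10 to 120 peaks per Mb downstream of γ.

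The locus is on another chromosome than the edited Igh allele, and the genotypes were compared there on the same footing as elsewhere. Per 10000 peaks of the list, FS_Ca replicates 1 and 2 held 4.65 and 5.07 locus peaks, FS_Ia 5.06 and 4.59, PS_Ca 3.23 and 3.54, and PS_Ia 5.34 and 4.64. The PS_Ca libraries were the lowest of the 8, and the other 3 genotypes overlapped. Singled out after its values were seen, PS_Ca is given without a test. In lists cut to the same length, the PS_Ca libraries held 5 and 4 locus peaks and the others 4 to 7, so the groups overlapped.

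Ia libraries held 4.91 ± 0.360 locus peaks per 10000 and Ca libraries 4.12 ± 0.878 (SD, n = 4 each). The difference was 0.784 (exact two-sided permutation of 4 against 4, p = 0.257, adjusted over 2 factors 0.314), and the values of Ia and Ca libraries overlapped. The smallest p of this permutation is 0.0286, and 1 factor alone at that value would not pass adjustment over 2 factors. The adjusted test therefore cannot decide whether orientation or switch length made a difference. Peak names fall into 3 sets of libraries by prefix. Within these sets Ia minus Ca was -0.0369 in the 4 FS libraries, 2.12 in the replicate 1 libraries of PS and 1.09 in their replicate 2 libraries. In PS libraries the value was 4.19 ± 0.979 and in FS libraries 4.84 ± 0.259. PS minus FS was -0.653 (p = 0.314 by exact permutation, adjusted 0.314). Since no set mixes FS with PS, these 2 cannot be told apart.

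**Figure D4:**
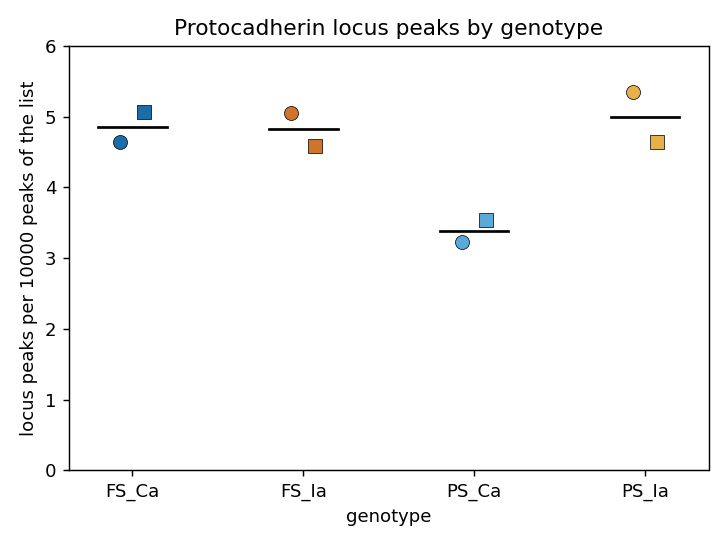
Locus peaks per 10000 peaks of the list (vertical axis, from 0) for each library by genotype; circles are replicate 1, squares replicate 2 and bars the mean of 2 libraries. PS_Ca libraries sit at 3.23 and 3.54, and the other 6 between 4.59 and 5.34.

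Presence of single sites was compared between the levels of each factor. With 4 against 4 libraries the smallest p is 0.0286, which cannot pass adjustment over this many regions unless a large share of them reach it, so the adjusted test says nothing of whether sites differ. In the whole genome, 0 of 64772 regions (0%) passed an adjusted p of 0.05 for orientation or for switch length (Fisher's exact test on presence in 4 against 4 libraries, Benjamini-Hochberg adjustment over all regions). For each factor, 31 regions (0.0479%) were held by all 4 libraries of one level and by none of the other, which are also those at an unadjusted p under 0.05. None of these was a locus site. The site that leaned most to a factor was the γ site at 37925354 to 37926220, held by 3 of 4 Ia and 0 of 4 Ca libraries (Fisher's exact test, p = 0.143; adjusted p = 1), with folds of 5.55 to 5.91. For switch length no locus site had a p below 1, since each was held by FS and PS libraries in numbers that differed by at most 1.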

How the data were processed

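Rad21 ChIP-seq was analysed from 8 deposited peak lists in narrowPeak layout, 1 per library. MACS2 2.2.7.1, Bowtie2 2.4.4, deepTools 3.5.1 and SAMtools 1.15.1, with mm9 as the build, are named per the submitters' processing notes. Their settings, the read filters and the control, if any, were not given in the sources used here. Per peak, the deposited lists give a score, a fold enrichment as a ratio over background, −log10 p and −log10 q, all the authors' values and used only within their list. Heights were recovered from the deposited fold as (height + 1) over (background + 1), and 100% came out whole within 0.05 fragments.

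Peaks were merged across libraries at 1 bp overlap. Cluster windows and flanks took peaks by summit and by overlap respectively. Sites were named by rule: those of all 8 libraries, the best-ranked of each window and flank, and any that followed a factor; the other sites were added after their values were seen. The window, the lists and the tests were chosen with earlier results of these data known. Tests were exact permutations over libraries (sign flips within library, or the 70 assignments of 4 against 4) and Fisher's exact test, run with scipy 1.17.1, pandas 2.3.3 and numpy 2.4.6 under Python 3.11.15. The merging, the recovery of the background and the permutation tests were tried on simulated data, and Fisher's exact test was not. Figures used matplotlib 3.10.9. Alternatives were a −log10 q of at least 5, lists of 11288 peaks each, summits ± 100 bp, other flanks and borders, merging within 500 bp, raw numbers, libraries of the same number as pairs, and each library left out.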

Additional observations from a re-analysis of the deposited data

How the results depend on the processing

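The lower density of the locus than of its flanks, of α than of γ, and the higher density of γ than of β, kept direction and threshold under all 14 alternatives run for each. Locus minus flanks was -11.9 to -5.55, α minus γ -23.2 to -10.5 and γ minus β 9.59 to 19.4 peaks per Mb. The difference of α from β kept both in 13 of 14 and missed the threshold in lists of equal length (-0.938, adjusted exact permutation p = 0.25). For the 3 cluster pairs, the setting of summits ± 100 bp could change nothing, since these windows already took peaks by summit. The runs that left out 1 library reuse the same values, so the alternatives are not independent. The rank of locus against flank peaks passed the threshold with a −log10 q of at least 5 (16.7), changed sign with flanks of 500 kb (-0.174), against the upstream flank alone (-2.12) and without FS_Ia replicate 2 (-0.504), and ran from -0.504 to 4.56 when 1 library was left out. The number of locus sites was 13 at the stricter threshold and 10 in lists of equal length, against 27, and 19 to 27 without 1 library. Sites held by every library numbered 2 at either of these 2 settings, against 3, and 3 to 4 without 1 library. The γ site at 37910595 was held by 7 libraries at the stricter threshold and by 6 in lists of equal length. Without 1 library, Ia minus Ca was 0.485 to 1.10 and PS minus FS -1.04 to -0.333 peaks per 10000. Ia minus Ca became -0.221 in lists of equal length, and PS minus FS became 1 in raw peaks. The cause of these changes was not tested.

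Taking libraries of the same number as pairs (replicate block), orientation gave 0.784 and switch length -0.653 peaks per 10000. These means equal the unpaired differences by construction. With 4 pairs the sign-flip test cannot reach the threshold, so it decides nothing for either factor. Over 6747 regions, the deviations of same-numbered libraries from their genotype mean correlated at -0.226 for FS_Ca with PS_Ca and 0.402 for FS_Ia with PS_Ia. Within a switch length the correlations were 0.105 for FS_Ca with FS_Ia and 0.0745 for PS_Ca with PS_Ia. The replicate 1 libraries of PS_Ca and PS_Ia share a peak-name prefix, as do their replicate 2 libraries, whereas the 4 FS libraries share another whatever their number. The labels do not say what a number or a prefix marks, so the pairing was not settled. Lists of 4 to 22 locus peaks limit every count here, and summits of 3 to 5 fragments limit what could be called.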
